A study of Bos taurus with 20 samples.

Results

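The distal end of bovine chromosome 29 carries a group of genes that are known in mammals for parental imprinting, in which the copy from one parent is silenced. The 43 genes described here are all those of the 27607 in the count files whose first base lies in a window of 1.7 Mb that ends at 50000000 on chromosome 29 of the cattle assembly ARS-UCD1.2. Of these, 23 are on the plus strand and 20 on the minus strand, and they are numbered 1 to 43 below in order of their start. Each of the 20 libraries came from total RNA of 1 whole bovine conceptus (the embryo with its extraembryonic membranes) grown from an embryo produced by in vitro fertilisation. Embryos received 100 ng/ml recombinant bovine IL6, the cytokine interleukin-6, or its carrier alone on day 5, and blastocysts were collected on day 7.5 for transfer; the day on which conceptuses were recovered is not given in the sources used here. Conceptuses were labelled by shape as ovoid or tubular, which are the early and the later form of an elongating ruminant conceptus. The groups were 6 ovoid controls (3 female, 3 male), 6 ovoid IL6 conceptuses (4 female, 2 male), 4 tubular controls (1 female, 3 male) and 4 tubular IL6 conceptuses (2 female, 2 male). Every group shared the in vitro origin and the culture, and no untreated group or conceptus from natural mating was analysed here. Because whole conceptuses were sequenced, fewer cells of a type and less RNA per cell cannot be told apart.

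In cattle, as in other mammals, this kind of region holds a pair of imprinted domains. One lies around KCNQ1, a potassium channel gene, with CDKN1C, an inhibitor of the cell cycle, and PHLDA2, a placental growth restrainer. The other lies around IGF2, a growth factor of fetal and placental tissue expressed mainly from the paternal copy, and H19, a noncoding RNA expressed mainly from the maternal copy. Between them lie genes such as CD81, a membrane tetraspanin, ASCL2, a transcription factor of the trophoblast, and TH and INS, the genes of tyrosine hydroxylase and insulin. RefSeq's table of the later cattle assembly ARS-UCD2.0 lists, with other genes between some of them, OSBPL5, CARS1, NAP1L4, PHLDA2, SLC22A18, CDKN1C, KCNQ1, TRPM5, TSSC4, CD81, TSPAN32, ASCL2, TH, INS, IGF2, H19, MRPL23, TNNT3, LSP1 and SYT8 in that order. The count files give Ensembl identifiers without gene names, and 0 of the 43 identifiers matched that table. The genes are therefore described by identifier and position, no value below is tied to one of these names, and the check of conceptus tissue by marker genes and the insulin-like growth factor genes elsewhere in the genome were not analysed here.

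Between 329666 and 13940103 read pairs per library were assigned to genes. Ovoid control 3 was the shallowest library, with counts in 15567 genes against 17623 to 19937 in the other 19, and it stood apart for many genes of the region. Results that rest on it are given with and without it. The titles carry a code before each conceptus number whose meaning is not given in the sources used here. Code c201 holds 4 ovoid controls, c5036 holds 2 ovoid and 2 tubular controls, c8086 holds 2 tubular controls, c6186 holds 4 ovoid and 2 tubular IL6 conceptuses, and c9007 holds 2 of each shape with IL6. Treatment is nested in this code, so an IL6 difference and a difference between codes cannot be told apart, and p-values for IL6 are too small if conceptuses of 1 code resemble each other. Replicate numbers below only name conceptuses.

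Levels along the region were uneven. They are given as CPM, read counts scaled to the size and composition of each library, and, to compare genes, as CPM per kilobase of counted exon (CPM per kb). The median over the 20 libraries was above 100 CPM for 4 genes, above 10 CPM for 12, below 1 CPM for 23 and 0 for 12 of the 43. Genes 28 and 29, single-block genes of 67 and 70 bases on the minus strand inside gene 27, had no count in any library, which allows at most 0.0190 CPM (here without the composition scaling) over all 157715576 counts. Such limits cover counting error only. A further 10 genes reached at most 3 counts in any library. The filter on low counts kept 27 of the 43 genes for testing; the highest median among the 16 left out was 0.474 CPM (gene 9). The 43 genes are 0.156% of the genes in the files and took a median of 0.0998% of the counts.

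**Figure D1:**
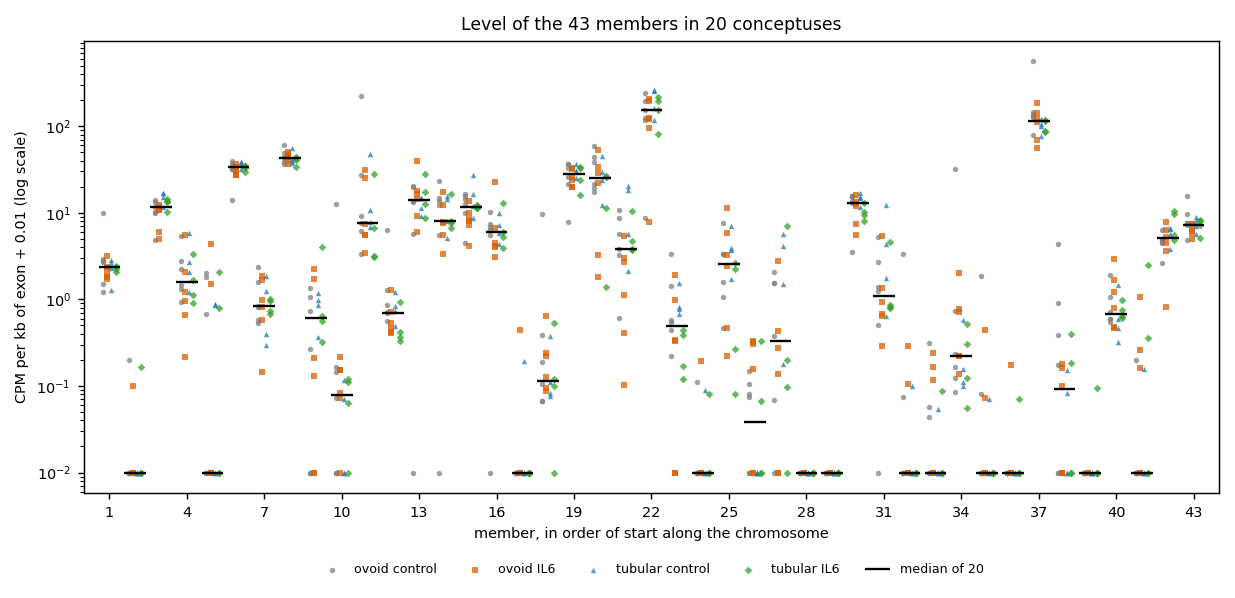
Level of each of the 43 genes in order of start on chromosome 29. The y axis is CPM per kb of exon plus 0.01 on a log scale and the x axis is the gene's order; each point is a conceptus, coloured by group, and each bar the median of 20. Genes 22 and 37, with medians of 152 and 116 CPM per kb, stand among genes near 0.

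From the proximal side, the region began with genes of moderate to high CPM, among others that were low. Genes 2 and 5 had a median of 0 CPM, gene 7 of 0.964 CPM and gene 4 of 4.92 CPM. Gene 1 (ENSBTAG00000016470, 48309501 to 48338158, plus strand) had a median of 8.48 CPM, and gene 3 (ENSBTAG00000001077, 48450137 to 48518334, plus strand) 46.8 CPM. Genes 6 (ENSBTAG00000010777, 48561752 to 48614531, plus strand) and 8 (ENSBTAG00000022160, 48624179 to 48676972, plus strand) had 113 and 122 CPM, or 33.5 and 42.9 CPM per kb. Both varied little between conceptuses: edgeR's biological coefficient of variation was 0.198 for gene 6, and 96.1% of the tested genes had a higher one. For gene 8 it was 0.188, and 97.8% had a higher one. Gene 8 ranged from 96.5 to 175 CPM with group means of 129 ± 25.6 in ovoid controls (SD, n = 6), 126 ± 14.3 in ovoid IL6 conceptuses (SD, n = 6), 125 ± 25.1 in tubular controls (SD, n = 4) and 114 ± 12.7 in tubular IL6 conceptuses (SD, n = 4). Its levels overlapped in all 4 groups.

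The next stretch was long and mostly of low level. Its highest median by CPM was 14.0 CPM, or 7.52 CPM per kb, for gene 11 (ENSBTAG00000031184). Gene 12 (ENSBTAG00000010986, 48759236 to 49139386, minus strand) spans more of the region than any other and has 16 exon blocks, yet its median was 2.14 CPM, or 0.687 CPM per kb of exon. Inside its span and on its own strand lie 4 single-block genes that overlap none of its exons: gene 13 (ENSBTAG00000053825, 48910275 to 48910500), gene 14 (ENSBTAG00000053548, 48938591 to 48938705), gene 15 (ENSBTAG00000054201, 48939026 to 48939219) and gene 16 (ENSBTAG00000051644, 48962220 to 48962684). Their medians were 3.20, 0.916, 2.25 and 2.76 CPM, which is 14.2, 7.97, 11.6 and 5.93 CPM per kb, all above the exons of the gene that contains them. Levels per kb may be too high for genes this short (115 to 465 bases), because reads of 150 bases that only touch them may count in full. This was not tested. Unspliced RNA of gene 12, which still holds the stretches between its exons, would cover these 4 genes on the same strand. Whether their counts include such reads was not tested either.

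Distal to that gene the level rose again. Gene 19 (ENSBTAG00000047793, 49191068 to 49194708, minus strand) and gene 20 (ENSBTAG00000047495, 49197117 to 49216812, minus strand) lie 2.4 kb apart and had medians of 40.1 and 36.4 CPM, or 28.3 and 25.1 CPM per kb. Their spread between conceptuses differed: gene 19 lay between 11.2 and 52.3 CPM, whereas gene 20 ran from 1.98 CPM in tubular IL6 1 to 85.9 CPM in ovoid control 1. Gene 21 (ENSBTAG00000002702, 49265271 to 49282523, minus strand) had a median of 9.0 CPM.

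Gene 22 (ENSBTAG00000026769, 49311817 to 49313692, plus strand) had the highest level per length of the region, 152 CPM per kb, with a median of 196 CPM that ranked it 922nd of all genes by CPM and 462nd per kb. In ovoid controls its lowest, median and highest levels were 11.2, 178 and 313 CPM, and in ovoid IL6 conceptuses 10.1, 159 and 267 CPM. The tubular controls had 208, 337, 150 and 324 CPM, and the tubular IL6 conceptuses 249, 103, 197 and 277 CPM. The level was low in 2 conceptuses, ovoid control 3 and ovoid IL6 1, and above 100 CPM in the other 18, with all 4 groups overlapping.

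A stretch of low and variable genes followed. Gene 23 (ENSBTAG00000026768, 49383349 to 49391410, plus strand) had a median of 0.954 CPM. Gene 25 (ENSBTAG00000013066, 49394907 to 49422468, plus strand) had a median of 15.6 CPM that hid a wide spread. In ovoid controls it ran from 2.80 to 46.9 CPM, and the ovoid IL6 conceptuses had 70.0, 1.32, 2.82, 35.6, 19.9 and 14.9 CPM. The tubular controls had 22.9, 24, 10.7 and 43.5 CPM, and the tubular IL6 conceptuses 0.441, 1.58, 13.7 and 16.3 CPM. The 6 IL6 conceptuses of code c6186 held both its highest and its lowest level, and the 4 of code c9007 lay between 13.7 and 19.9 CPM.

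Gene 27 (ENSBTAG00000054745, 49510742 to 49513379, plus strand) was the least even of the region, with a biological coefficient of variation of 1.3 that 0.807% of the tested genes exceeded. Its median was 0.573 CPM, yet tubular IL6 4 had 12.8 CPM, tubular controls 2 and 4 had 10.3 and 7.37 CPM, and ovoid IL6 1 had 5.03 CPM. It had no count in ovoid control 4, ovoid IL6 2 and 3 and tubular IL6 1. In ovoid controls it ran from 0 to 3.74 CPM, and its lowest level in a tubular control was 0.305 CPM. The levels of all 4 groups overlapped.

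Gene 30 (ENSBTAG00000000103, 49542736 to 49549261, minus strand) had a median of 30.5 CPM and gene 31 (ENSBTAG00000053603, 49550909 to 49553252, minus strand), 1.6 kb away, 1.82 CPM. Genes 32 to 36 were close to silent, with a highest median of 0.795 CPM for gene 34 (ENSBTAG00000010447, 49598330 to 49637383, minus strand). Gene 34 lay between 0.169 and 7.53 CPM in 19 conceptuses and at 118 CPM in ovoid control 3.

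Gene 37 (ENSBTAG00000007622, 49712700 to 49722179, plus strand) was the most abundant by CPM, with a median of 236 CPM (116 per kb) that ranked it 712th of all genes and 629th per kb. Its lowest, median and highest levels were 163, 274 and 1145 CPM in ovoid controls and 114, 238 and 377 CPM in ovoid IL6 conceptuses. The tubular controls had 205, 248, 159 and 219 CPM, and the tubular IL6 conceptuses 175, 240, 181 and 233 CPM. The level of 1145 CPM belonged to ovoid control 3, and the next highest was 377 CPM in ovoid IL6 5. All 4 groups overlapped. At the distal end, genes 42 (ENSBTAG00000051211, 49970526 to 49980774, plus strand) and 43 (ENSBTAG00000011249, 49990564 to 50043414, plus strand) had medians of 22.2 and 15.6 CPM.

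**Figure D2:**
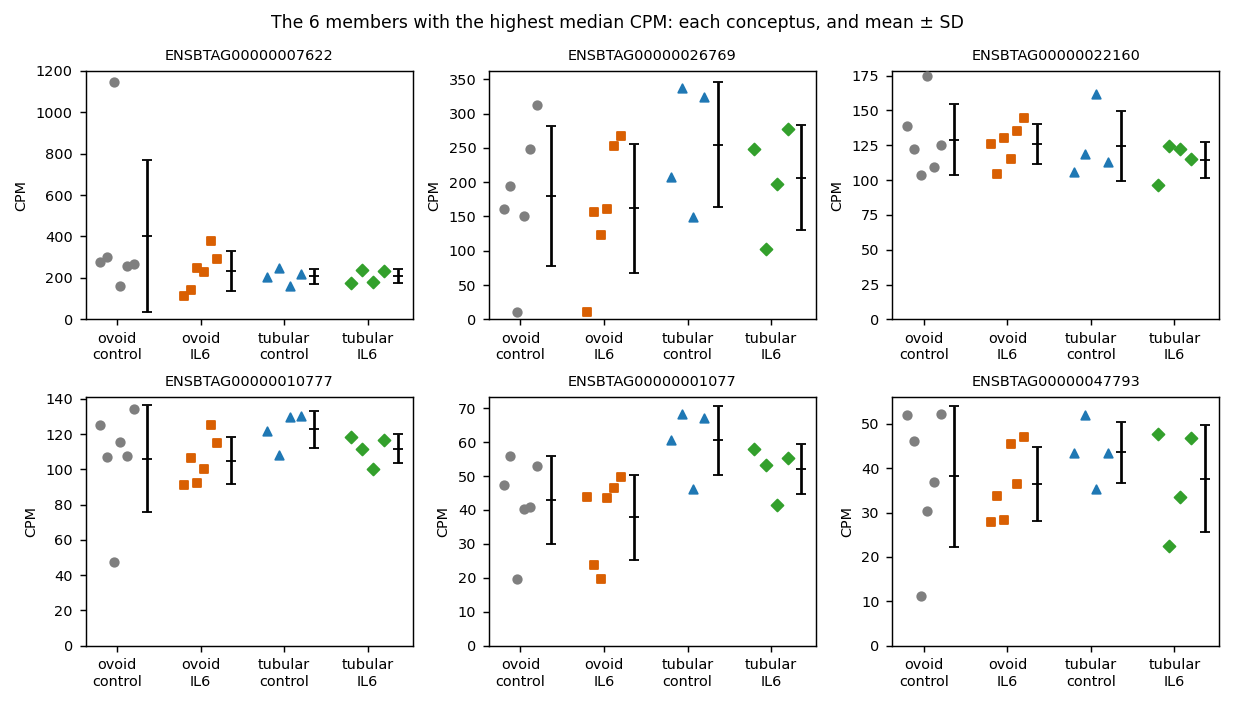
CPM (y axis) of the 6 genes with the highest median in each conceptus by group; bars are the group mean ± SD. Gene 37 reaches 1145 CPM in ovoid control 3, and gene 22 falls to 10.1 CPM in ovoid IL6 1 and 11.2 CPM in ovoid control 3.

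Genes 37 and 22 together held from 16.5% of the region's counts in ovoid IL6 1 to 55.1% in ovoid IL6 5, and the 4 most abundant genes held a median of 71.2%. The share of a library's counts that fell on the region therefore followed few genes. It was 0.125% ± 0.0557 in ovoid controls (SD, n = 6), 0.0879% ± 0.0212 in ovoid IL6 conceptuses (SD, n = 6), 0.105% ± 0.0213 in tubular controls (SD, n = 4) and 0.0917% ± 0.0116 in tubular IL6 conceptuses (SD, n = 4). The highest share, 0.235% (95% Wilson interval 0.219 to 0.253), was that of ovoid control 3.

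No difference in this share passed a 2-sided exact permutation test adjusted over the 4 comparisons. The share differed between ovoid IL6 and ovoid control conceptuses by -0.0367 percentage points (exact p = 0.0996, adjusted p = 0.398), which was -0.0145 points without ovoid control 3 (exact p = 0.199), and between tubular IL6 and tubular control conceptuses by -0.0136 points (exact p = 0.286, adjusted p = 0.571). Without gene 37 the ovoid difference was -0.0178 points (exact p = 0.0498 before adjustment). Tubular differed from ovoid by -0.0193 points in controls (exact p = 0.743, adjusted p = 0.743), which became 0.00286 points without ovoid control 3, and by 0.00380 points with IL6 (exact p = 0.714, adjusted p = 0.743). By title code, the mean share of ovoid conceptuses was 0.134% in c201, 0.105% in c5036, 0.0757% in c6186 and 0.112% in c9007. Within the 2 IL6 codes the ovoid means thus lay on both sides of that of the controls of c5036.

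The study's question was whether IL6 given to the embryo changes the conceptus, and the first comparison of single genes was IL6 against control within ovoid conceptuses. None of the 27 tested genes passed an adjusted p of 0.05 in edgeR's quasi-likelihood test, and the percentage of all 14875 tested genes that passed was 0. At an unadjusted p under 0.05 there was 1 of the 27, against 8.34% of all tested genes. DESeq2 called 0 of the 27 after adjustment (0.578% of all genes) and 2 before adjustment (10% of all genes), genes 37 and 18, both lower with IL6 and both highest in ovoid control 3 (gene 18, ENSBTAG00000046662, had 36.4 CPM there and 0 to 2.35 CPM elsewhere). Gene 37, the abundant distal gene whose levels are given above, was the gene with the small unadjusted p in edgeR, and its log2 fold change was -0.91 ± 0.38 (SE), with an edgeR adjusted p = 0.527. Without ovoid control 3 this was -0.22 ± 0.29, with an edgeR adjusted p = 0.799. For gene 21 (ENSBTAG00000002702) the difference was -1.18 ± 0.73 (edgeR adjusted p = 0.709). On the positive side, gene 40 (ENSBTAG00000019579) had 0.52 ± 0.50 and gene 25 (ENSBTAG00000013066) 0.57 ± 0.79, with edgeR adjusted p = 0.857 and 0.929. Leaving out 1 conceptus moved these between 0.17 and 0.72 and between -0.017 and 0.87. The estimates were positive for 6 genes and negative for 21, with a median of -0.34 on the log2 scale against 0.02 over all tested genes. Without ovoid control 3 they were positive for 8 and negative for 19, with a median of -0.18 against -0.01. No gene had ovoid groups that did not overlap (0 of 27 in each direction, against 0.148% of all tested genes higher and 0.0605% lower with IL6).

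In tubular conceptuses, too, 0 of the 27 genes passed edgeR's adjusted threshold (0% of all tested genes), 0 had an unadjusted p under 0.05 (2.51% of all), and DESeq2 gave 0 after adjustment (0% of all) and 0 before it (4.23% of all). Gene 23 (ENSBTAG00000026768) had 1.32, 1.59, 1.52 and 3.04 CPM in tubular controls and 0.220, 0.316, 0.845 and 0.751 CPM in tubular IL6 conceptuses. Behind these levels were only 14, 19, 10 and 33 counts in the tubular controls and 1, 2, 10 and 9 counts with IL6. In CPM, every tubular control lay above every tubular IL6 conceptus for this gene. Its log2 fold change was -1.69 ± 0.97 (SE; edgeR adjusted p = 0.9997), and in ovoid conceptuses, which ran from 0.412 to 6.63 CPM in controls and from 0 to 3.75 CPM with IL6, the groups overlapped. It was the only one of the 27 genes whose tubular groups did not overlap; over all tested genes 1.67% were lower and 2.39% higher in this way. Gene 30 (ENSBTAG00000000103) had -0.46 ± 0.31, gene 13 (ENSBTAG00000053825) 0.46 ± 0.56 and gene 42 (ENSBTAG00000051211) 0.36 ± 0.44, each with an edgeR adjusted p of 0.9997. Leaving out 1 conceptus moved the estimate of gene 42 between 0.062 and 0.49. Estimates were positive for 6 genes and negative for 21, with a median of -0.17 on the log2 scale against 0.00 over all tested genes.

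The mean IL6 difference over both shapes uses the same conceptuses as the preceding pair of comparisons and does not add to them independently. It called 0 of 27 genes in edgeR (0% of all), with 0 at an unadjusted p under 0.05 (10.7% of all). DESeq2 called 0 after adjustment (0.961% of all) and 4 before it (13.9% of all), which were genes 12, 21, 23 and 30, all lower with IL6. Gene 12 (ENSBTAG00000010986), the long gene of low level, had the smallest p in edgeR. Its log2 difference was -0.87 ± 0.42 (edgeR adjusted p = 0.474), and -0.58 ± 0.30 without ovoid control 3 (edgeR adjusted p = 0.335). Gene 30 (ENSBTAG00000000103) had -0.43 ± 0.17 without that library (edgeR adjusted p = 0.231), the smallest of the region in that fit. Estimates were positive for 5 genes and negative for 22, with a median of -0.34 against 0.00 over all tested genes, and positive for 8 and negative for 19 without ovoid control 3, with a median of -0.19.

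**Figure D3:**
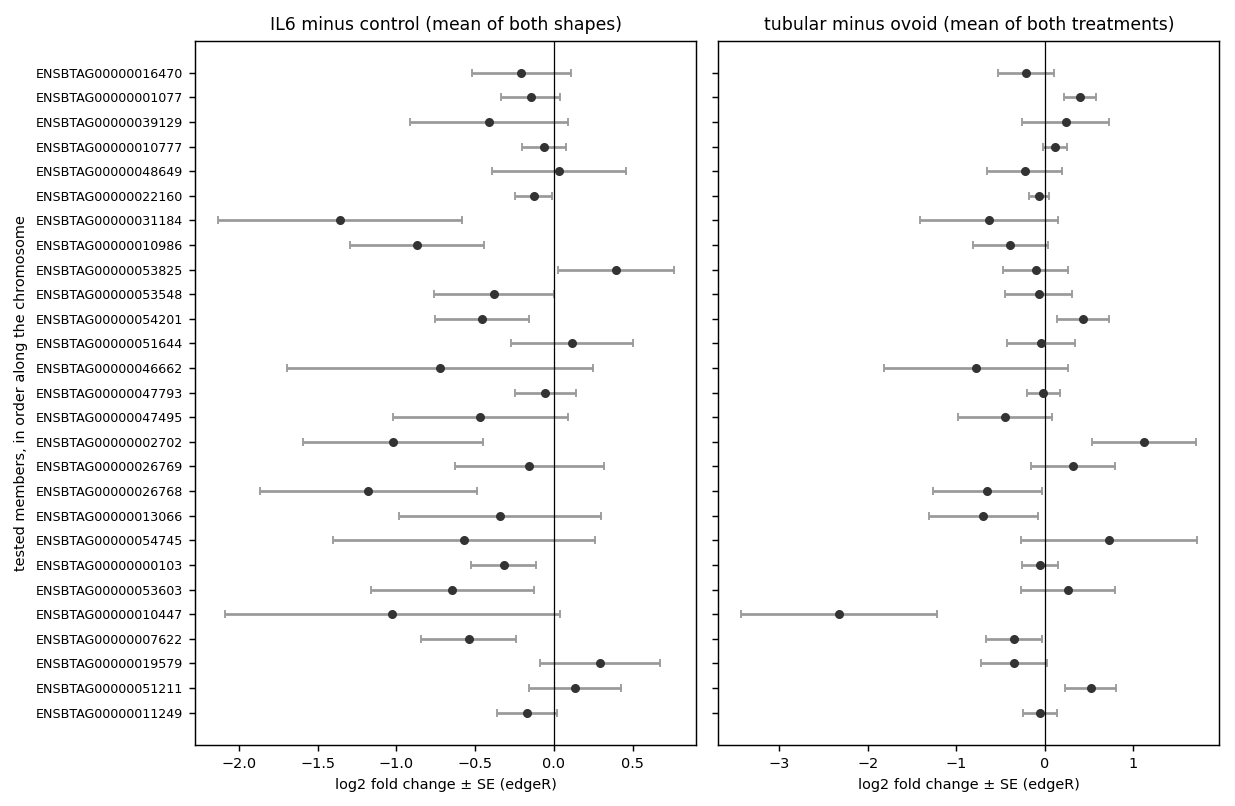
Log2 fold change (x axis; bars are ± SE, edgeR) for the 27 tested genes in order along the chromosome, for IL6 minus control over both shapes (left) and tubular minus ovoid over both treatments (right). No gene passed an adjusted p of 0.05; 22 of 27 IL6 estimates and 18 of 27 shape estimates lie below 0.

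Shape was compared within each treatment. Between tubular and ovoid controls, 0 of 27 genes passed edgeR's adjusted threshold (0% of all) and 0 had an unadjusted p under 0.05 (1.64% of all); DESeq2 gave 0 after adjustment (0% of all) and 1 before it (2.7% of all), gene 18. Estimates were positive for 12 genes and negative for 15, with a median log2 fold change of -0.03. Leaving out the 4 ovoid controls of code c201 turned this to 22 positive and 6 negative of 28 tested genes, with a median of 0.18. Between tubular and ovoid IL6 conceptuses, 0 of 27 passed (0% of all), 0 had an unadjusted p under 0.05 (2.8% of all), and DESeq2 gave 0 after adjustment (0% of all) and 0 before it (4.38% of all). For gene 25 (ENSBTAG00000013066), whose levels are given above, the log2 difference was -1.60 ± 0.90 (SE) and for gene 42 (ENSBTAG00000051211) 0.74 ± 0.40, both with an edgeR adjusted p of 0.99997. No gene had shapes that did not overlap: 0 of 27 in controls, against 0.161% of all tested genes higher and 0.134% lower in tubular conceptuses, and 0 of 27 with IL6, against 0.45% higher and 0.289% lower.

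Over both treatments, 0 of 27 genes passed edgeR's adjusted threshold for shape (0% of all) and 2 had an unadjusted p under 0.05, against 4.32% of all tested genes. DESeq2 gave 0 after adjustment (0% of all) and 1 before it (6.59% of all), gene 3. Gene 3 (ENSBTAG00000001077) had 47.3, 55.8, 19.6, 40.4, 40.9 and 52.9 CPM in ovoid controls and 43.8, 23.9, 19.8, 43.4, 46.3 and 49.6 CPM in ovoid IL6 conceptuses. The tubular controls had 60.7, 68.3, 46.2 and 67.1 CPM, and the tubular IL6 conceptuses 58, 53.2, 41.5 and 55.4 CPM. Levels of the shapes overlapped, with 4 of the 8 tubular conceptuses above every ovoid one. The log2 fold change was 0.40 ± 0.18 (SE; edgeR adjusted p = 0.914) and 0.37 ± 0.16 without ovoid control 3 (edgeR adjusted p = 0.800). Without the 6 conceptuses of code c6186 it was 0.03 ± 0.16 (edgeR adjusted p = 1).

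The second gene was gene 34 (ENSBTAG00000010447), at -2.32 ± 1.11 (SE; edgeR adjusted p = 0.914). Without ovoid control 3, where that gene had 118 CPM, its log2 fold change was -0.75 ± 0.61 (edgeR adjusted p = 0.810). Gene 21 (ENSBTAG00000002702) had 1.13 ± 0.59 (edgeR adjusted p = 0.914), with group means of 12.9 ± 8.74 CPM in ovoid controls (SD, n = 6), 4.98 ± 4.70 in ovoid IL6 conceptuses (SD, n = 6), 27.6 ± 21.5 in tubular controls (SD, n = 4) and 13.5 ± 7.82 in tubular IL6 conceptuses (SD, n = 4). The IL6 difference was also compared between shapes by an interaction term: 0 of 27 genes passed in edgeR (0% of all), 0 had an unadjusted p under 0.05 (0.632% of all), and DESeq2 gave 0 after adjustment (0% of all) and 0 before it (0.955% of all). Gene 25 (ENSBTAG00000013066) had an interaction of -1.82 ± 1.22 on the log2 scale (edgeR adjusted p = 1).

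Co-variation of neighbours was measured across the 20 conceptuses on log2 CPM from which group and sex means had been removed. The 26 pairs of consecutive tested genes had Pearson's r from -0.66 to 0.90, with 12 above 0 and a median of -0.0601. Over 14741 adjacent pairs of tested genes on all chromosomes the median was 0.171. Without ovoid control 3 the median of the 26 pairs was 0.209, that of the genome 0.167, and that of the other 325 pairs within the region -0.00185. In a permutation test adjusted over the 26 pairs, 7 passed 0.05, of which 3 were positive, and 11 passed without ovoid control 3. The permutations moved residuals freely between conceptuses, without regard to title code or to the group and sex means already removed. The removed means make these and the following permutation p-values too small. They are smaller still than they should be if conceptuses of 1 code resemble each other.

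The highest correlation was between genes 13 and 14 (ENSBTAG00000053825 and ENSBTAG00000053548), the short genes inside gene 12 that lie 28.1 kb apart. Their r was 0.899 (permutation p = 1e-05, the smallest these permutations can give; adjusted p = 0.00026) and Spearman's rho was 0.838 (permutation p = 2e-05). Leaving out the 2 conceptuses farthest from the median of the first-named gene's residuals gave r = 0.766. Here and below, group and sex means were not removed anew for that value. Leaving out ovoid control 3, with those means removed anew, gave 0.776. These 2 kinds of value are therefore not like measures. Gene 14 had medians near 1 CPM, so its residuals rest on few counts. Genes 13 and 14 both lie inside gene 12 on its strand. Whether their r comes in part from reads of unspliced RNA of gene 12 was not tested. Gene 11 (ENSBTAG00000031184, 48728420 to 48730918, plus strand; median 14.0 CPM) and gene 12 (ENSBTAG00000010986) had r = 0.823 (permutation p = 9e-05, adjusted p = 0.00117) and rho = 0.728 (permutation p = 0.00037). This was 0.642 without the 2 farthest conceptuses and 0.639 without ovoid control 3. Genes 30 and 31 (ENSBTAG00000000103 and ENSBTAG00000053603) had r = 0.695 (permutation p = 0.00024, adjusted p = 0.00208) and rho = 0.592 (permutation p = 0.00693), which was 0.557 without the 2 farthest conceptuses and 0.551 without ovoid control 3.

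Of the 4 negative pairs that passed, the 3 lowest came nearer to 0 without ovoid control 3. Genes 16 and 18 (ENSBTAG00000051644 and ENSBTAG00000046662) had r = -0.657 (permutation p = 0.00569, adjusted p = 0.0296) and rho = -0.355 (permutation p = 0.126), with r = -0.358 without the 2 farthest conceptuses and -0.0613 without ovoid control 3. Genes 31 and 34 (ENSBTAG00000053603 and ENSBTAG00000010447) had r = -0.623 (permutation p = 0.00238, adjusted p = 0.0155) and rho = -0.517 (permutation p = 0.0210), with r = -0.324 without the 2 farthest conceptuses and -0.420 without ovoid control 3. Genes 18 and 19 (ENSBTAG00000046662 and ENSBTAG00000047793) had r = -0.620 (permutation p = 0.0094, adjusted p = 0.0407) and rho = -0.510 (permutation p = 0.0232). Without the 2 farthest conceptuses this r was -0.317, and without ovoid control 3 it was 0.00602, so the relation rests on that library. The fourth, genes 4 and 6 (ENSBTAG00000039129 and ENSBTAG00000010777), had r = -0.567 (permutation p = 0.0113, adjusted p = 0.0419) and rho = -0.615 (permutation p = 0.00457). It was -0.680 without the 2 farthest conceptuses and -0.550 without ovoid control 3 (permutation adjusted p = 0.0406). Depth moved with several of these residuals: their r with log2 total counts was -0.975 for gene 34, -0.897 for gene 18, 0.824 for gene 30 and -0.801 for gene 11, or -0.930, -0.661, 0.517 and -0.587 without ovoid control 3. The part of depth in the correlations was not tested.

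With ovoid control 3 left out, the matrix of correlations showed a pair of runs of neighbours that were positive throughout. They were chosen after the matrix was seen and are described without a test. The first run was genes 11 to 16, which are gene 12, the 4 short genes inside it and gene 11 beside it. Over the 19 conceptuses its 15 pairs had r from 0.384 to 0.872 with a median of 0.669. The 4 short genes lie on the strand of gene 12, so they may not be measures separate from it or from each other. The part of unspliced RNA of gene 12 in these r was not tested. The second run was the 5 tested genes from 23 to 31 (genes 23, 25, 27, 30 and 31), whose 10 pairs had r from 0.482 to 0.826 with a median of 0.617. Over all runs of 6 neighbouring tested genes in the genome the median of such medians was 0.0734, and 10% of runs were above 0.373. For runs of 5 genes these values were 0.0777 and 0.424. With all 20 conceptuses, 10% of runs were above 0.421 for 6 genes and 0.476 for 5 genes. Both runs of the region were picked for their high r, so a place above most runs follows from that choice and is not support.

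Between the runs the 30 pairs had a median r of -0.0260, and 12 of them were above 0. With title code means removed as well, the medians were 0.560 within the first run, 0.546 within the second and 0.308 between them, where 29 of the 30 pairs were then above 0. With all 20 conceptuses the median r was 0.230 in the first run, where 9 of 15 pairs were above 0, and 0.518 in the second, where all 10 were. Gene 20 (ENSBTAG00000047495) lies outside the second run, beyond gene 22, and its r with the 5 genes of that run was 0.580 to 0.917 without ovoid control 3. Its highest was with gene 25 (ENSBTAG00000013066), 178 kb away: r = 0.842 (permutation p = 1e-05, adjusted over 351 pairs p = 0.000351) and rho = 0.814 (permutation p = 5e-05) in the 20 conceptuses. It was 0.712 without the 2 farthest conceptuses and 0.917 without ovoid control 3.

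**Figure D4:**
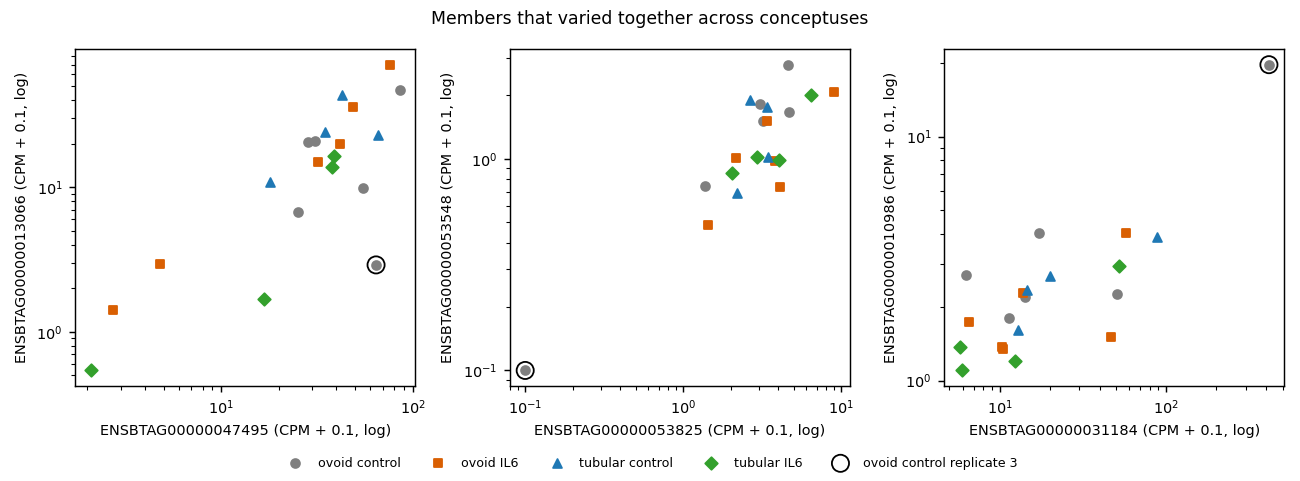
CPM plus 0.1 on log axes for 3 pairs of genes (20 and 25, 13 and 14, 11 and 12); each point is a conceptus, coloured by group, and ovoid control 3 is circled. The pairs rise together across the 20 conceptuses (r of 0.842, 0.899 and 0.823 after group and sex means are removed). Correlation within single groups was not computed. Ovoid control 3 is off the trend in the first panel and at an extreme of the others.

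Genes 19, 22 and 43 went the other way from the first run, again as a description made after the matrix was seen. Without ovoid control 3, r with the 6 genes of that run was -0.85 to -0.38 for gene 19 (ENSBTAG00000047793), -0.92 to -0.42 for gene 22 (ENSBTAG00000026769) and -0.87 to -0.25 for gene 43 (ENSBTAG00000011249), all 6 below 0 in each. With title code means removed as well, the medians were -0.53, -0.60 and -0.56. In all 20 conceptuses 3 of the 6 were below 0 for each of these genes, with medians of -0.07, -0.17 and -0.44. Ovoid IL6 1 lay far out in both directions: its residual of gene 22 was -3.58, and its mean residual of the first run was 1.17, the highest. How far the first run and these negative values rest on ovoid IL6 1 was not tested. Depth moved with these blocks. Without ovoid control 3, the r of the residuals with log2 total counts was below 0 for all 6 genes of the first run (-0.587 to -0.0348) and above 0 for all 5 genes of the second (0.489 to 0.662). It was 0.603 for gene 20, 0.472 for gene 19, 0.357 for gene 22 and 0.667 for gene 43. The part of depth, and of the scaling that all these values share, was not tested.

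**Figure D5:**
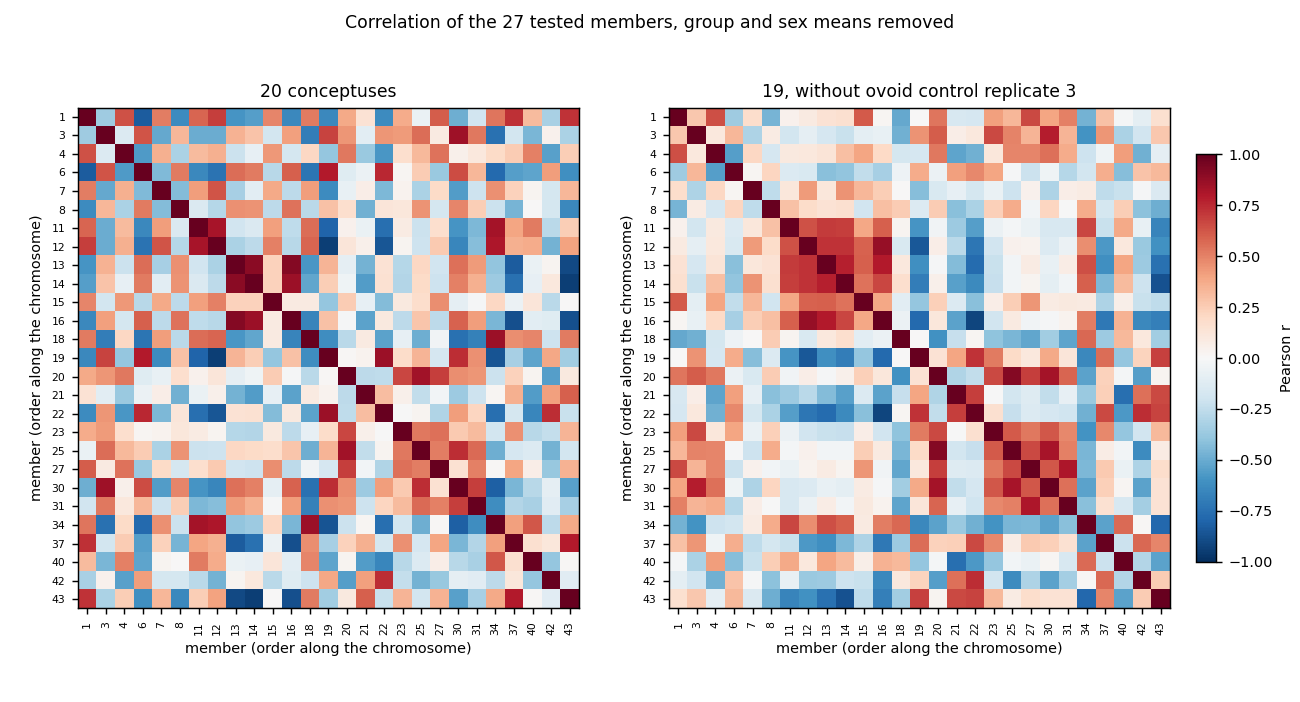
Pearson's r between the 27 tested genes in order along the chromosome, over 20 conceptuses and over the 19 without ovoid control 3. In the latter, genes 11 to 16 and genes 23 to 31 form positive blocks (median r of 0.669 and 0.617).

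The runs shared some of their high conceptuses and differed in others. The mean residual of the first run was highest in ovoid IL6 1 (1.17 on the log2 scale), tubular IL6 2 (0.97), tubular control 4 (0.65) and ovoid control 4 (0.59), and lowest in ovoid control 6 (-0.73), ovoid IL6 5 (-0.67) and tubular control 2 (-0.67). That of the second run was highest in tubular IL6 4 (1.31), ovoid control 1 (1.28) and ovoid IL6 1 (1.19), and lowest in ovoid IL6 2 (-1.93), tubular IL6 1 (-1.52) and ovoid IL6 3 (-1.21). Gene 11, of the first run, had 87.7 CPM in tubular control 4, 57.3 CPM in ovoid IL6 1, 52.1 CPM in tubular IL6 2 and 414 CPM in ovoid control 3, against 5.66 to 50.5 CPM in the others. Of the high and low conceptuses, ovoid IL6 1 was high in both runs while gene 22, which lies between them, had its lowest level there.

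Of the 43 genes, 14 overlap another gene of the annotation. Reads were counted without regard to strand, per the file headers. Reads from overlapping genes on opposite strands were therefore not told apart by strand, as for genes 6 and 7 or 33 and 34. For short genes inside a longer gene on the same strand, strand could not tell reads apart in any case. No sequence of the region was used here, and allele-specific expression, by which imprinting is measured, was not analysed here.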

How the data were processed

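Paired-end reads of 150 bases came from rRNA-depleted total RNA, per the labels' protocols. The submitters' processing notes name the aligner HISAT2 together with SAMtools and Picard. The authors deposited unnormalised read counts for each Ensembl release 105 gene of ARS-UCD1.2, which featureCounts 2.0.1 produced, per the file headers. Counting was unstranded, per the same headers.

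Of the 27607 genes, the 14875 that passed filterByExpr were fitted together, and p-values were adjusted (Benjamini-Hochberg) over these. The model had 4 group terms and sex, with edgeR 4.0.16 (TMM factors, robust quasi-likelihood test); DESeq2 1.42.0 was an alternative. CPM used TMM-scaled library sizes, and correlations log2 CPM with a prior count of 2 and 100000 permutations. Region shares were compared by exact permutation tests. Depth was 329666 to 13940103 counts. The scripts were tested on simulated data without title code effects, so this does not check the p-values against such effects.

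Named genes were the 6 highest by CPM and by CPM per kb, up to 2 positive and 2 negative per comparison by smallest p, the 3 highest and 3 lowest neighbour pairs, and genes whose groups did not overlap; others were chosen after their values were seen. Members and lists were chosen with earlier results of these data known. Marker and insulin-like growth factor lists matched 0 identifiers and were not used. Alternatives covered size factors, filters, the sex term, prior count, title codes and leaving out each conceptus; DESeq2 without the shallowest library was chosen after seeing the data.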

Additional observations from a re-analysis of the deposited data

Results flagged for a closer look

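Dixon's criterion at the 95% level was applied to 88 sets, the 21 named genes and the region's share in each of the 4 groups. In 24 of them the highest or lowest conceptus stood apart from the rest of its group. Many of these genes were named for small p-values or extreme correlations, which outlying conceptuses can produce, and the values were not on a log scale. The 24 can therefore not be set against a chance rate. Ovoid control 3, the shallowest library, accounted for 9: gene 37 (ENSBTAG00000007622) at 1145 CPM, gene 11 (ENSBTAG00000031184) at 414 CPM, gene 34 (ENSBTAG00000010447) at 118 CPM, gene 18 (ENSBTAG00000046662) at 36.4 CPM, gene 12 (ENSBTAG00000010986) at 19.6 CPM and gene 40 (ENSBTAG00000019579) at 2.80 CPM were high there, as was the region's share of counts at 0.235%. Gene 6 (ENSBTAG00000010777) at 47.6 CPM and gene 30 (ENSBTAG00000000103) at 8.40 CPM were low there. In that library the value of gene 40 is 1 count and that of gene 30 is 3 counts.

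Ovoid IL6 1 stood apart upward in genes of both runs of co-varying neighbours: gene 16 (ENSBTAG00000051644) at 10.5 CPM, gene 13 (ENSBTAG00000053825) at 8.97 CPM, gene 12 at 3.94 CPM and gene 31 (ENSBTAG00000053603) at 8.97 CPM. Tubular IL6 2 stood apart in 3 genes of the first run, gene 11 at 52.1 CPM, gene 12 at 2.84 CPM and gene 14 (ENSBTAG00000053548) at 1.90 CPM. Tubular control 4 did so for gene 11 at 87.7 CPM and gene 23 (ENSBTAG00000026768) at 3.04 CPM. The remaining conceptuses were ovoid IL6 3 (gene 18 at 2.35 CPM, gene 34 at 7.53 CPM), tubular control 3 (gene 18 at 1.37 CPM, gene 34 at 2.13 CPM), tubular IL6 1 (gene 21, ENSBTAG00000002702, at 25.1 CPM) and tubular IL6 4 (gene 31 at 7.67 CPM).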

How the results depend on the processing

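The count of called members was 0 in all 7 comparisons under every edgeR and DESeq2 setting run, so no call depends on a setting. Over all alternatives, values for single genes and pairs kept their direction 1010 times and reversed 14 times. For pairs this covers the sign of r only, not the side of the threshold. Without the shallowest library, the adjusted permutation p of ENSBTAG00000051644 with ENSBTAG00000046662 rose from 0.0296 to 0.873. That of ENSBTAG00000053603 with ENSBTAG00000010447 rose from 0.0155 to 0.161, whereas the 3 named positive pairs stayed under 0.05. Counts of called genes, region shares and the median r of neighbours were counted as unchanged 283 times and as reversed 8 times. The ovoid IL6 share passed an unadjusted p of 0.05 under 2 alternatives. No paired analysis was possible because the labels give no replicate numbers shared between groups; title code was used as a block for the shape comparisons. The cause of the changes below was not tested. For the region's share, the ovoid IL6 difference was -0.0178 points without the top gene (exact p = 0.0498) and -0.0457 to -0.0145 when leaving out 1 conceptus; without ovoid IL6 5 it was -0.0422 (exact p = 0.0390). The share of tubular minus ovoid controls was 0.00232 without the top gene and -0.0284 to 0.00286 when leaving out 1 conceptus, and that of tubular minus ovoid IL6 was -0.00193 to 0.00936. Without code c6186, log2 fold changes turned to -0.50 for ENSBTAG00000019579 (ovoid IL6; -0.24 over both shapes), -0.23 for ENSBTAG00000053825 (tubular IL6; -0.56 over both) and -0.069 for ENSBTAG00000051211 (tubular IL6; -0.15 for shape with IL6). ENSBTAG00000010447 for shape in controls was 0.072 with the title code block and 1.15 without code c201. The interaction of ENSBTAG00000046662 was -0.14 in DESeq2 without the shallowest library, -1.47 without c201, and -0.17 to 2.87 when leaving out 1 conceptus. Leaving out 1 conceptus gave -0.017 to 0.87 for ENSBTAG00000013066 (ovoid IL6), -0.0066 to 0.64 for ENSBTAG00000053825 (tubular IL6) and r from -0.790 to 0.00602 for ENSBTAG00000046662 with ENSBTAG00000047793. The median r of neighbours was 0.0170 with group and sex means left in, 0.00337 without overlapping pairs, and -0.117 to 0.209 when leaving out 1 conceptus. Depth limits what can be seen for the 23 genes below 1 CPM, where a missed call does not show that levels were alike.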
